A study of Mus musculus with 12 samples.

Results

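The enzymes that break down glucose and that store and release glycogen were followed in the gastrocnemius, a calf muscle of the mouse, across age and a muscle-specific knock-out of the coactivator PGC-1alpha. The 35 listed genes cover glycolysis, glycogen breakdown with its kinase, glycogen synthesis, the glycerol phosphate shuttle and the control of fructose bisphosphates. Each was matched by its symbol to the probe sets that name 1 gene, and the probe set with the highest mean over the 12 arrays stood for the gene. By this rule 32 of the 35 were measured, among 18194 genes in all. Gpi1, Eno1 and Pfkfb1 had no such probe set.

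Total RNA was hybridised to Affymetrix mouse arrays, 3 arrays in each of 4 groups, numbered in accession order, so that a number only names an array. The groups were young wild-type mice of 10 weeks (WT young), young knock-out mice of the same age (KO young), old wild-type mice of 24 months (WT old) and old knock-out mice of that age (KO old). All came from a C57Bl/6N/6J/129 background. In the knock-outs Ppargc1a, the gene of PGC-1alpha, was targeted with a cre under myogenin, a gene of differentiating muscle cells, so the other cell types of the muscle keep the gene. Whether the wild-type mice carried the cre or a floxed allele is not given in the sources used here. Nor do the labels state whether each array had its own animal. A p-value here sets a difference against the spread of the arrays as they are, part of which may be technical.

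Glycolysis splits glucose into pyruvate and yields ATP without oxygen, and fast muscle fibres depend on it for short, strong contractions. Glycogen is the muscle's own glucose store, opened by phosphorylase, which phosphorylase kinase switches on during contraction. PGC-1alpha is best known in muscle as an activator of mitochondrial genes and of the oxidative fibre program, and the balance between oxidative and glycolytic fuel use is one of the questions such a knock-out addresses.

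Over all values of the 12 arrays the median was log2 6.22, on a scale from 3.2 to 15.95, and arrays of the same group correlated at 0.989 to 0.996. The skeletal muscle markers were all present, 8 of 8, with mean signals of log2 14.1 to 15.9. Ppargc1a itself, on its brightest probe set, read no lower where the label was knock-out: knock-out minus wild-type was 0.53 ± 0.229 (SE, n = 3 per group) in young muscle and 0.29 ± 0.229 in old muscle, with limma adjusted p-values of 0.410 and 0.506. The labels do not name the deleted exons, so a probe set outside them checks nothing, and every genotype difference below is one between arrays as labelled. One array stood apart. On the first principal component, which held 37.8% of the variance, KO old 1 lay at 42.6, against 19.3 and 15.7 for the other two KO old arrays. It held the lowest of the 12 values for 16 of the 32 genes and the highest for 7.

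Most of these genes gave strong signals in this muscle. The mean over the 12 arrays reached log2 10 for 23 of the 32 and log2 14 for 13, while 2, Aldoc and Ppp1r3a, lay under that median. For the brightest, such as Aldoa, Gapdh and Eno3, the signals lie near the top of the scale, where differences may be compressed. The probe sets of Aldoa and Gyg are of kinds (x_at, s_at) that can bind related transcripts as well. From the lowest to the highest array, the genes spanned a median of 0.573 on the log2 scale, close to the 0.593 of all genes. In 10 of them (31.2%) the span stayed under 0.5, as it did in 34.3% of all genes. In 6 (18.8%, against 14.1% of all genes) it passed 1. These 6 were Pygl, Gbe1, Gpd1, Gpd2, Pfkfb3 and Fbp2, and KO old 1 was the lowest or the highest array in each of them.

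**Figure D1:**
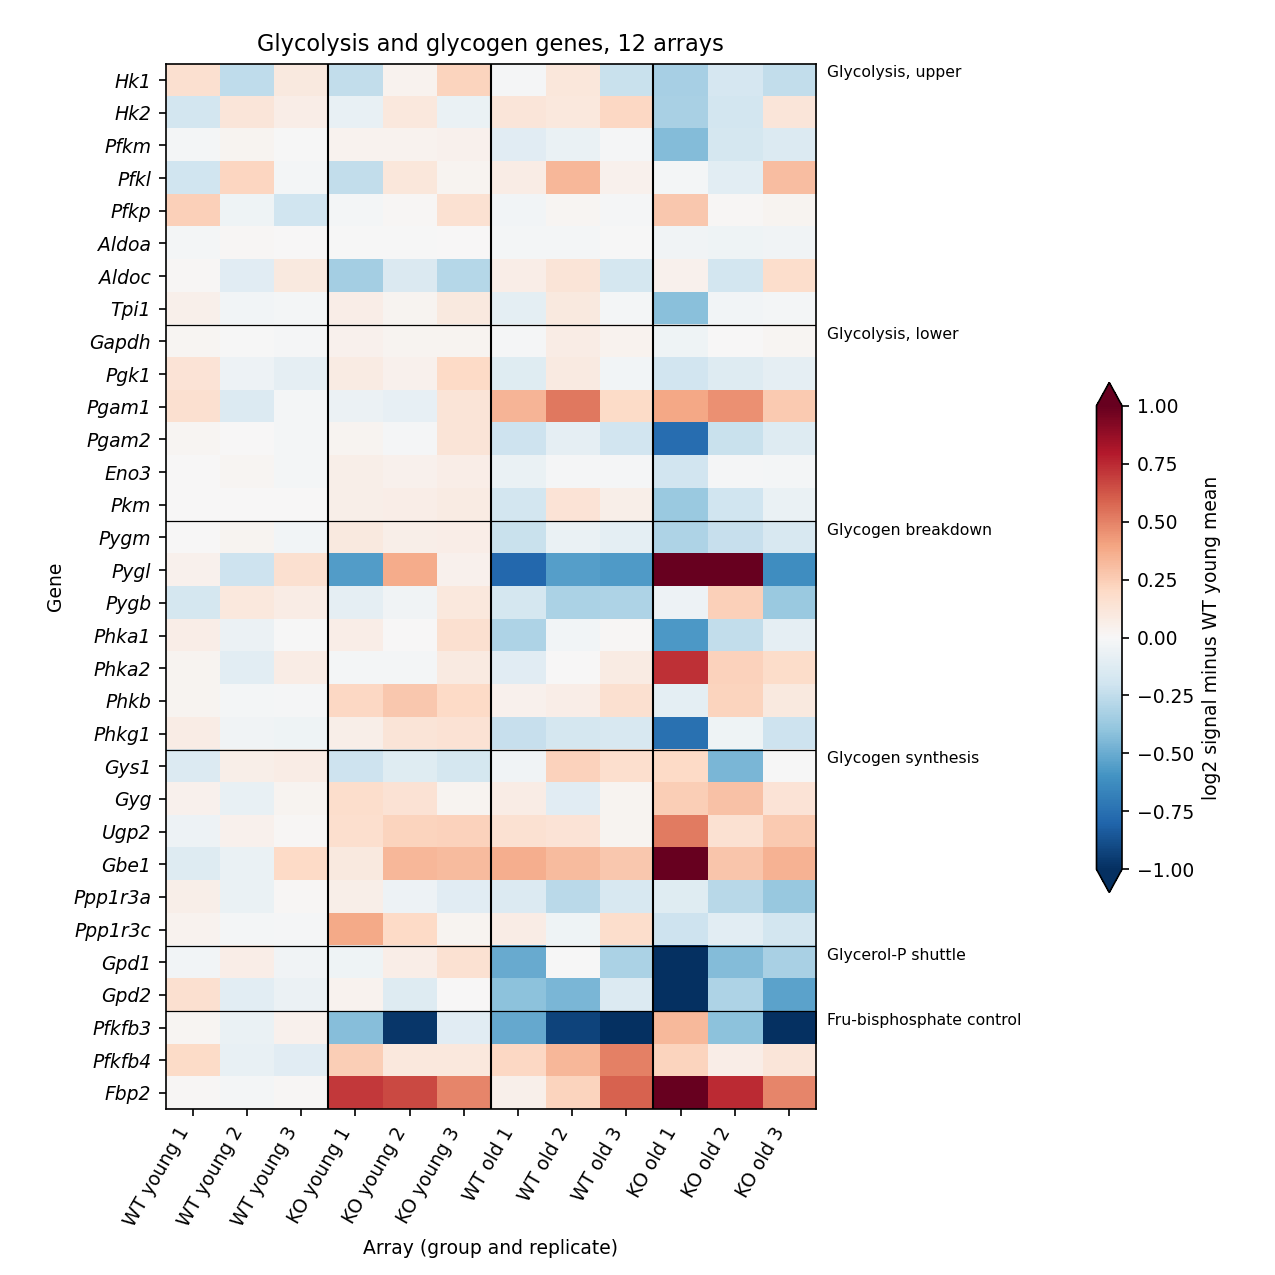
Log2 signal of each of the 32 genes (rows, grouped by role) in each of the 12 arrays (columns), minus the gene's mean over the 3 WT young arrays. Red is higher and blue is lower, and colours are capped at 1 and -1. Fbp2 is red in the KO young and KO old columns and also in WT old 3. Pgam1 is red in the old columns, and KO old 1 holds the deepest blue for Pgam2, Phkg1, Gpd1 and Gpd2.

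The map of signals by array shows the main features of the group. Pgam1 read higher in old arrays, and Pygm and Gpd2 read lower in old arrays. On average Fbp2 read higher in knock-out arrays and Gpd1 lower in old arrays, but with some overlap of single arrays. The upper steps of glycolysis stayed pale in most columns.

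Promoter sequences are shown for Fbp2, Pgam1, Pygm and Ppp1r3c, because the calls of the genotype and age comparisons turned on these genes. The 4 stretches are the 250 bases before the start of each gene in RefSeq (GRCm38.p6), on the gene's strand. Capitals mark matches on either strand to CANNTG, the general E-box, to CACGTG or to its core ACGTG, letters read by E-box and hypoxia factors.
Fbp2, chr13:62858401-62858650, minus strand: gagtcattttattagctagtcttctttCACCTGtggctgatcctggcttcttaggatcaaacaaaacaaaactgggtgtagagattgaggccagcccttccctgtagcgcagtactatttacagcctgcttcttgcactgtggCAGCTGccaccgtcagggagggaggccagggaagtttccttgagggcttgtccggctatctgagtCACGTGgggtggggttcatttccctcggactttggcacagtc
Pgam1, chr19:41911621-41911870, plus strand: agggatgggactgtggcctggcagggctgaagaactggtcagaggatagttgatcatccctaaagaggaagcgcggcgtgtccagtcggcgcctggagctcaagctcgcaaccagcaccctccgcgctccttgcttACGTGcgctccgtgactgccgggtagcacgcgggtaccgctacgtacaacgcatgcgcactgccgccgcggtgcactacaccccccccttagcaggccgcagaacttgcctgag
Pygm, chr19:6384158-6384407, plus strand: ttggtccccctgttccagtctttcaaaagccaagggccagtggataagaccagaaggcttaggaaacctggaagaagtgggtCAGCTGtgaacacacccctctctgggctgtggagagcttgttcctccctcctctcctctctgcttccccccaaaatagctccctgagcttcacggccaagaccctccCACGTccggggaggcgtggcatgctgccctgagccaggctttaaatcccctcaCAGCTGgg
Ppp1r3c, chr19:36736605-36736854, minus strand: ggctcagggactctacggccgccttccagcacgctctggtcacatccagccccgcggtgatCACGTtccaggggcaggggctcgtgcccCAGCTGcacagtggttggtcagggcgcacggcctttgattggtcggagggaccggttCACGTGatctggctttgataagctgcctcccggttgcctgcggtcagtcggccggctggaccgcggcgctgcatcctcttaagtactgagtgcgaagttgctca

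The windows of Fbp2 and Ppp1r3c each held CACGTG, 42 and 104 bases before the start. ACGTG lies within CACGTG, and CACGTG is a case of CANNTG, so the counts overlap. Over the 42 windows of the 31 genes with one (Gpd1 had none), CACGTG was found in 4 (9.52%), against 6.02% of 32851 windows in all. ACGTG was found in 17 (40.5%, against 16.6%), CANNTG in 28 (66.7%, against 66.2%) and GGGCGG, the GC box, in 20 (47.6%, against 32.7%). AAGGTCA, the letters bound by the estrogen-related receptors with which PGC-1alpha works, was found in 0 of 42 windows, against 4.08% of all. A match is a string of letters, and these data do not measure binding.

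Fbp2, the muscle form of fructose-1,6-bisphosphatase, which turns fructose-1,6-bisphosphate back into fructose-6-phosphate, read higher in knock-out than in wild-type muscle at both ages. The log2 signals were 10.80, 10.77 and 10.80 in WT young, 11.50, 11.45 and 11.28 in KO young, 10.84, 11.01 and 11.38 in WT old, and 12.09, 11.54 and 11.28 in KO old. In young muscle, every knock-out array of Fbp2, whose promoter is printed above, lay above every wild-type array, while in old muscle WT old 3 lay above KO old 3. Knock-out minus wild-type was 0.62 ± 0.182 in young and 0.56 ± 0.182 in old muscle, 1.54-fold and 1.47-fold higher. Neither passed on its own (limma with Benjamini-Hochberg adjustment, adjusted p = 0.239 and 0.134), and the old difference turned on 2 arrays. It was 0.33 without KO old 1 (adjusted p = 0.274), and 0.738 without KO old 3, where it passed (adjusted p = 0.0447). Averaged over both ages, a comparison chosen after the values were seen, Fbp2 rose by 0.59 ± 0.129, or 1.5-fold, with a 95% interval of 0.309 to 0.868 (limma adjusted p = 0.0273). It was the only one of the 32 genes to pass in that average, where 4.22% of all genes passed in either direction and 1.71% were higher, and 4 of the 32 (23.2% of all genes) had an unadjusted p under 0.05. Without KO old 1 the average was 0.475 (adjusted p = 0.0222). The call was lost when any 1 of WT young 2, WT young 3, KO young 1, KO young 2, WT old 1 or WT old 2 was left out, with adjusted p-values from 0.056 to 0.0728 and differences from 0.53 to 0.592.

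In young muscle alone, 0 of the 32 genes passed between genotypes, against 0.192% of all genes (limma with Benjamini-Hochberg adjustment), and 3 of them had an unadjusted p under 0.05, against 11.3% of all. Groups did not overlap for 8 genes higher in knock-out muscle (10.7% of all genes) and 2 lower (10.1%). The median difference was 0.0475, beside -0.00802 over all genes. For 28 of the 32 the 95% interval lay within 1.5-fold either way, against 85.2% of all genes. Larger shifts than that are therefore outside the intervals for most of the group.

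After Fbp2, the smallest p-values in young muscle belonged to Phkb, Aldoc and Ugp2. Phkb encodes the regulatory beta subunit of phosphorylase kinase. It read 14, 13.95 and 13.96 in WT young and 14.18, 14.24 and 14.17 in KO young, with no overlap, and the difference was 0.23 ± 0.0885 (adjusted p = 0.360). In old muscle the 2 genotypes overlapped for Phkb, at 14.01, 14.04 and 14.13 in WT old and 13.87, 14.19 and 14.07 in KO old. Ugp2 makes UDP-glucose, the donor for glycogen synthesis. Its signals were 14.22, 14.31 and 14.28 in WT young, 14.44, 14.49 and 14.50 in KO young, 14.42, 14.41 and 14.30 in WT old and 14.79, 14.42 and 14.53 in KO old. The differences between genotypes were 0.21 ± 0.096 in young and 0.20 ± 0.096 in old muscle (adjusted p = 0.447 and 0.269), the latter 0.0988 without KO old 1, and the other 4 Ugp2 probe sets differed in the same direction at both ages. Aldoc, the aldolase isoform of brain, lay under the array median and differed by -0.25 ± 0.115 in young muscle (adjusted p = 0.433).

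Old muscle gave 0 of 32 as well, against 1.32% of all genes, with 7 genes at an unadjusted p under 0.05 (19.3% of all). Groups did not overlap for 2 genes higher in knock-out muscle (10.6% of all genes), Gyg and Phka2, and 3 lower (13.2%), Pfkm, Aldoa and Ppp1r3c. The median difference was -0.0776, beside -0.0196 over all genes, and 25 intervals lay within 1.5-fold, against 80.7% of all genes. Gyg encodes glycogenin, the protein primer of each glycogen particle. Its signals were 14.25, 14.06 and 14.20 in WT old and 14.42, 14.47 and 14.31 in KO old, a difference of 0.23 ± 0.0849 (adjusted p = 0.168), and its other probe set differed by 0.262. Phka2, the liver form of the phosphorylase kinase alpha subunit, read 7.92, 8.03 and 8.11 in WT old and 8.76, 8.26 and 8.22 in KO old. KO old 1 was the highest of these, and the difference of 0.39 ± 0.129 did not pass (adjusted p = 0.138). Without that array it was 0.218 (adjusted p = 0.251).

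**Figure D2:**
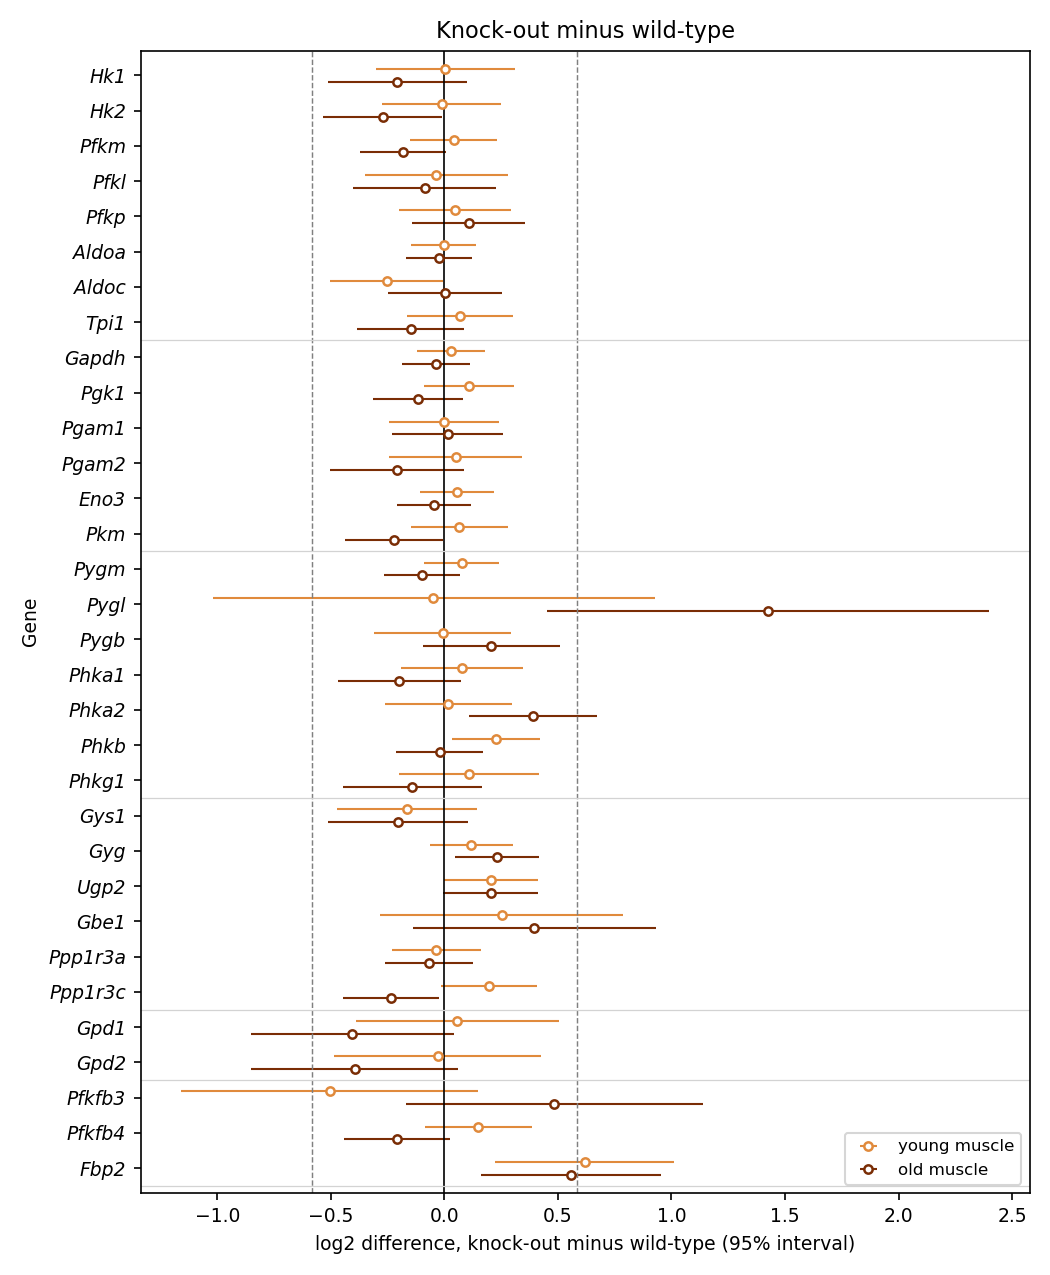
Knock-out minus wild-type log2 difference of each gene in young (light) and old (dark) muscle, with 95% intervals from limma. Dashed lines mark 1.5-fold either way, and open circles are differences that did not pass at an adjusted p of 0.05, which here is all of them. Fbp2 sits at 0.62 and 0.56, and Pygl has the widest intervals.

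The plot of genotype differences shows how narrow most intervals were around 0, with Pygl, Pfkfb3, Gpd1, Gpd2 and Gbe1 as the wide ones. Pygl, the liver form of glycogen phosphorylase, had the largest difference of the 32 genes, in old muscle, and its KO old arrays disagreed. It read 6.50, 6.25 and 6.62 in WT young, 5.90, 6.83 and 6.50 in KO young, 5.67, 5.91 and 5.90 in WT old, and 8.10, 7.81 and 5.84 in KO old. KO old 1 and KO old 2 were high, while KO old 3 lay inside the WT old range. The old genotype difference was 1.43 ± 0.449 (adjusted p = 0.125). Without KO old 3 it was 2.13 and passed (adjusted p = 0.00113), and without KO old 1 it was 1.0 (adjusted p = 0.278). The adipocyte markers were on average high in the same arrays, though not each of them. Lep read 5.64 in KO old 1, under the 6.25 to 6.50 of WT young. Of the 7 listed markers 5 were measured, and 0 of the 5 passed in any of the 4 group comparisons. Their mean log2 level relative to WT young was 1.55 in KO old 1, 1.0 in KO old 2 and -1.12 in KO old 3, and -1.09, -1.26 and -0.425 in the WT old arrays. Their part in the Pygl result was not tested. In bulk muscle RNA, more or fewer cells of a type and more or less RNA per cell cannot be told apart.

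**Figure D3:**
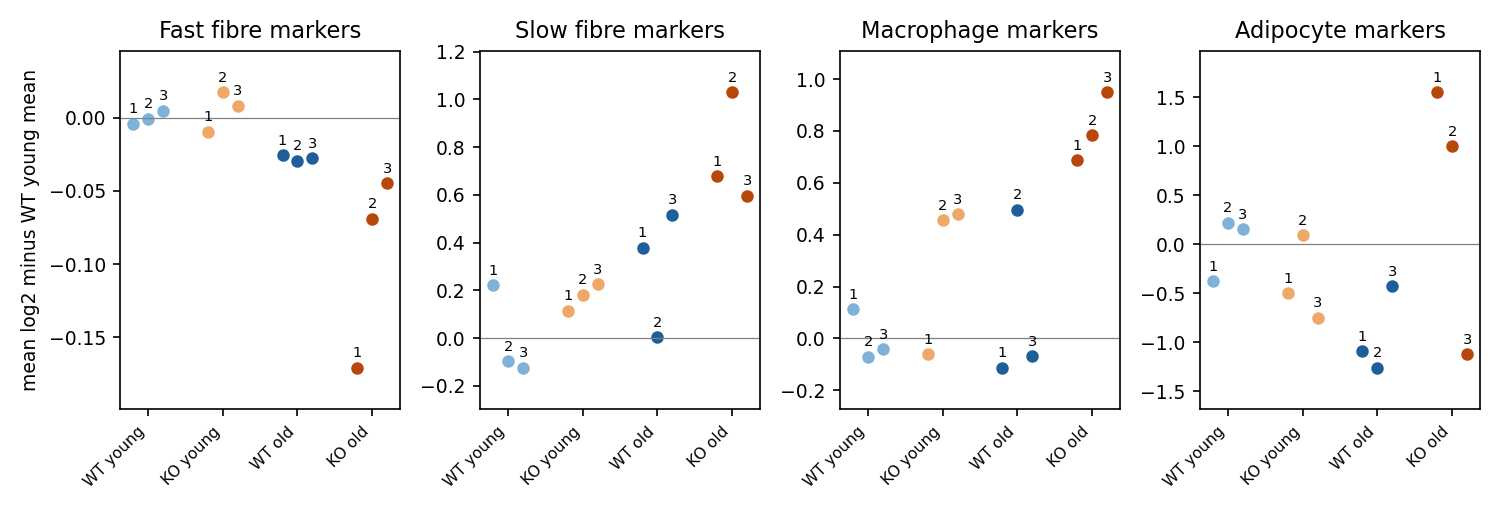
Mean log2 level of 4 marker lists in each array, relative to the WT young mean, with the replicate number beside each point. KO old 1 and KO old 2 are high and KO old 3 is low in adipocyte markers, the 3 KO old arrays are the highest in slow fibre and macrophage markers, and KO old 1 is the lowest in fast fibre markers, at -0.171.

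The plot of marker levels also bears on the other genotype comparisons and on the age comparisons. Knock-out minus wild-type, the median of the slow fibre markers was 0.382 in young and 0.441 in old muscle, with 0 of 9 passing. For macrophage markers it was 0.349 and 0.669, and 1 of 8 passed in old muscle, against 0.473% of all genes as higher. For endothelial markers it was -0.198 and -0.242, with 0 of 5 passing. In the mean of the fast fibre markers, all 6 old arrays lay below all 6 young arrays. These means were -0.0257 to -0.0294 in WT old and -0.0448 to -0.171 in KO old. However, 0 of the 11 fast fibre markers passed in any group comparison. Their mean signals, from log2 14.7 to 15.8, lie near the top of the scale, where differences may be compressed. Their median age difference was -0.00509 for WT and -0.0258 for KO. Casq1, from this list, read 13.63 in KO old 1, against 14.62 and 14.68 in KO old 2 and KO old 3. Myh4, from the same list, read 15.67, 15.63 and 15.60 in these arrays. Slow fibre markers were at 0.378, 0.00311 and 0.517 in WT old and at 0.678, 1.03 and 0.596 in KO old, and 2 of the 9 passed as higher with age in knock-out muscle. Macrophage markers were at 0.687, 0.784 and 0.95 in KO old, and 1 of 8, Cd68, passed as higher with age in knock-out muscle. Endothelial markers had 2 of 5 that passed as lower with age in each genotype, and were at -0.38 to -0.459 in WT old and -0.40 to -0.707 in KO old. Fibroblast markers had 1 of 5 lower in wild-type and 2 of 5 lower in knock-out muscle, and were at -0.707 to -1.28 in WT old and at -2.13, -0.71 and -0.432 in KO old. Of the 2 red cell markers, 1 was higher with age in each genotype. Among all genes, 1.65% passed as higher and 1.97% as lower with age in wild-type muscle. In knock-out muscle these shares were 4.85% and 5.41%. The Gapdh control probe sets, 5' minus 3', also differed with age, from -0.236 to -0.0846 in young arrays to -0.0433 to 0.0183 in old arrays, which is a sign of RNA or cRNA quality. The part of these shifts in the genotype differences above and in the age differences below was not tested.

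With age, Pgam1 and Pygm differed in opposite directions in both genotypes. Pgam1 is the widely expressed phosphoglycerate mutase of lower glycolysis, beside the muscle isoform Pgam2. It read 8.0, 7.70 and 7.81 in WT young, 7.78, 7.76 and 7.97 in KO young, 8.17, 8.37 and 8.03 in WT old and 8.22, 8.29 and 8.10 in KO old. Within each genotype every old array lay above every young array. Old minus young was 0.35 ± 0.112 in wild-type muscle and 0.37 ± 0.112 in knock-outs, and neither passed alone (limma adjusted p = 0.118 and 0.0567). Averaged over both genotypes, which was also chosen after the values were seen, Pgam1 rose by 0.36 ± 0.0792, or 1.28-fold (adjusted p = 0.00856). Pgam2, the muscle isoform, differed by -0.17 ± 0.135 and -0.42 ± 0.135 in the 2 genotypes (limma adjusted p = 0.613 for wild-type and 0.0683 for knock-out muscle). Its signals in KO old were 14.55, 15.09 and 15.18, with KO old 1 far below the others, and without that array the knock-out difference was -0.226 (adjusted p = 0.118).

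Pygm, the muscle glycogen phosphorylase that releases glucose-1-phosphate from glycogen, fell with age in knock-out muscle. Its signals were 14.68, 14.71 and 14.65 in WT young, 14.78, 14.74 and 14.75 in KO young, 14.46, 14.61 and 14.58 in WT old and 14.37, 14.45 and 14.52 in KO old. All 6 old arrays lay below all 6 young arrays. It fell by 0.31 ± 0.0765 in knock-out muscle, or 1.24-fold (limma adjusted p = 0.0261), and the difference in wild-type muscle was -0.13 ± 0.0765 (adjusted p = 0.434). The average over both genotypes fell by 0.22 ± 0.0541 (adjusted p = 0.0158). Pgam1 and Pygm passed in that average under each of the 19 alternatives tried, with or without KO old 1, where they were 0.357 (adjusted p = 0.0149) and -0.20 (adjusted p = 0.0232).

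In knock-out muscle 3 of the 32 genes passed with age, all lower: Pygm, Ppp1r3c and Gpd1. This is 9.38% of the group, beside 10.3% of all genes in either direction and 5.41% lower. At an unadjusted p under 0.05 there were 14, against 24.9% of all genes. Groups did not overlap for 15 genes that were lower in old muscle, against 14.9% of all genes, and for 2 that were higher, against 13.8%. The median difference was -0.0852, beside -0.00486 over all genes, and the 95% interval lay within 1.5-fold for 21 of 32 genes, against 77% of all. Without KO old 1 none of the 3 passed: Pygm was at -0.268, Ppp1r3c at -0.343 and Gpd1 at -0.44 (adjusted p = 0.0634, 0.083 and 0.0668). The count was also 0 without KO young 1 or KO young 2, 1 without WT young 3 or KO young 3, and 6 without KO old 3. Pygm also missed without KO young 3 or KO old 2 (0.0752 and 0.0522), Ppp1r3c without WT young 3, KO old 2 or KO old 3 (0.054, 0.0507 and 0.0688), and Gpd1 without any WT young array, KO young 3 or WT old 3 (0.052 to 0.13, adjusted).

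Ppp1r3c encodes a subunit that targets protein phosphatase 1 to glycogen. Its used probe set read 14.39, 14.33 and 14.34 in WT young, 14.73, 14.55 and 14.38 in KO young, 14.43, 14.31 and 14.53 in WT old and 14.15, 14.25 and 14.17 in KO old. The 3 KO old arrays were the lowest of the 12, and it fell by 0.36 ± 0.0972 in knock-out muscle (adjusted p = 0.0352). The difference in wild-type muscle was 0.07 ± 0.0972 (adjusted p = 0.796). A dimmer second probe set, with a mean of log2 11.42, differed by -0.125 in knock-out and by 0.807 in wild-type muscle (adjusted p = 0.852 and 0.167 over all probe sets). Taking the mean of both probe sets gave -0.244 in knock-out muscle, which did not pass (adjusted p = 0.479).

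The glycerol phosphate shuttle carries electrons from glycolytic NADH in the cytosol to the mitochondrion, through cytosolic Gpd1 and mitochondrial Gpd2. Gpd1 read 12.26, 12.35 and 12.25 in WT young, 12.24, 12.35 and 12.44 in KO young, 11.78, 12.28 and 11.97 in WT old and 11.01, 11.85 and 11.96 in KO old. Its knock-out groups did not overlap, and KO old 1 lay far below the others. It fell by 0.74 ± 0.206 in knock-out muscle, or 1.67-fold (adjusted p = 0.041), and wild-type muscle differed by -0.28 ± 0.206 (adjusted p = 0.569). Gpd2 read 12.94, 12.67 and 12.72, then 12.81, 12.65 and 12.78 in the 2 young groups, 12.37, 12.32 and 12.64 in WT old and 11.43, 12.47 and 12.24 in KO old. All old arrays lay below all young arrays, and the knock-out difference of -0.70 ± 0.209 missed the threshold (adjusted p = 0.0534). Without KO old 1 it was -0.391 (adjusted p = 0.0878). Averaged over both genotypes Gpd1 fell by 0.51 and Gpd2 by 0.52 (adjusted p = 0.0327 and 0.0319). Without KO old 1 these averages were -0.358 and -0.363 (adjusted p = 0.0167 and 0.0127). The other probe sets of Gpd2 differed by -0.378, -0.231 and -0.819, and those of Gpd1 by -0.341, -0.221 and -0.0418, in knock-out muscle. The Gpd2 probe set at -0.819, an s_at with a mean of log2 9.605, passed over all probe sets (limma adjusted p = 0.00868). The rest of these did not (adjusted p from 0.113 to 0.872).

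The averaged age comparison called 6 of the 32 genes, 1 higher and 5 lower, which is 18.8% beside 16.2% of all genes, 7.58% higher and 8.65% lower. At an unadjusted p under 0.05 there were 10, against 28.9% of all genes. Beside Pgam1, Pygm, Gpd1 and Gpd2, these were Ppp1r3a and Phkg1. Phkg1, the catalytic gamma subunit of phosphorylase kinase in muscle, read 12.88, 12.77 and 12.76 in WT young, 12.86, 12.93 and 12.95 in KO young, 12.57, 12.63 and 12.64 in WT old and 12.06, 12.76 and 12.60 in KO old. It fell by 0.32 ± 0.0997 (adjusted p = 0.0499), and KO old 1 was again the lowest array. Ppp1r3a, another glycogen-targeting subunit, fell by 0.21 ± 0.0636 (adjusted p = 0.0455), with a mean signal under the array median. Gpd1 was lost without WT young 2, WT young 3, WT young 1, KO young 2, KO young 3, WT old 1 or WT old 3 (adjusted p from 0.054 to 0.0787). Gpd2 was lost without WT young 1, WT young 3, any KO young array, WT old 1 or WT old 2 (0.0514 to 0.0739). Phkg1 was lost without any 1 of the WT young, KO young or WT old arrays (0.071 to 0.0996), and Ppp1r3a without any array other than KO old 1 (0.0512 to 0.104).

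**Figure D4:**
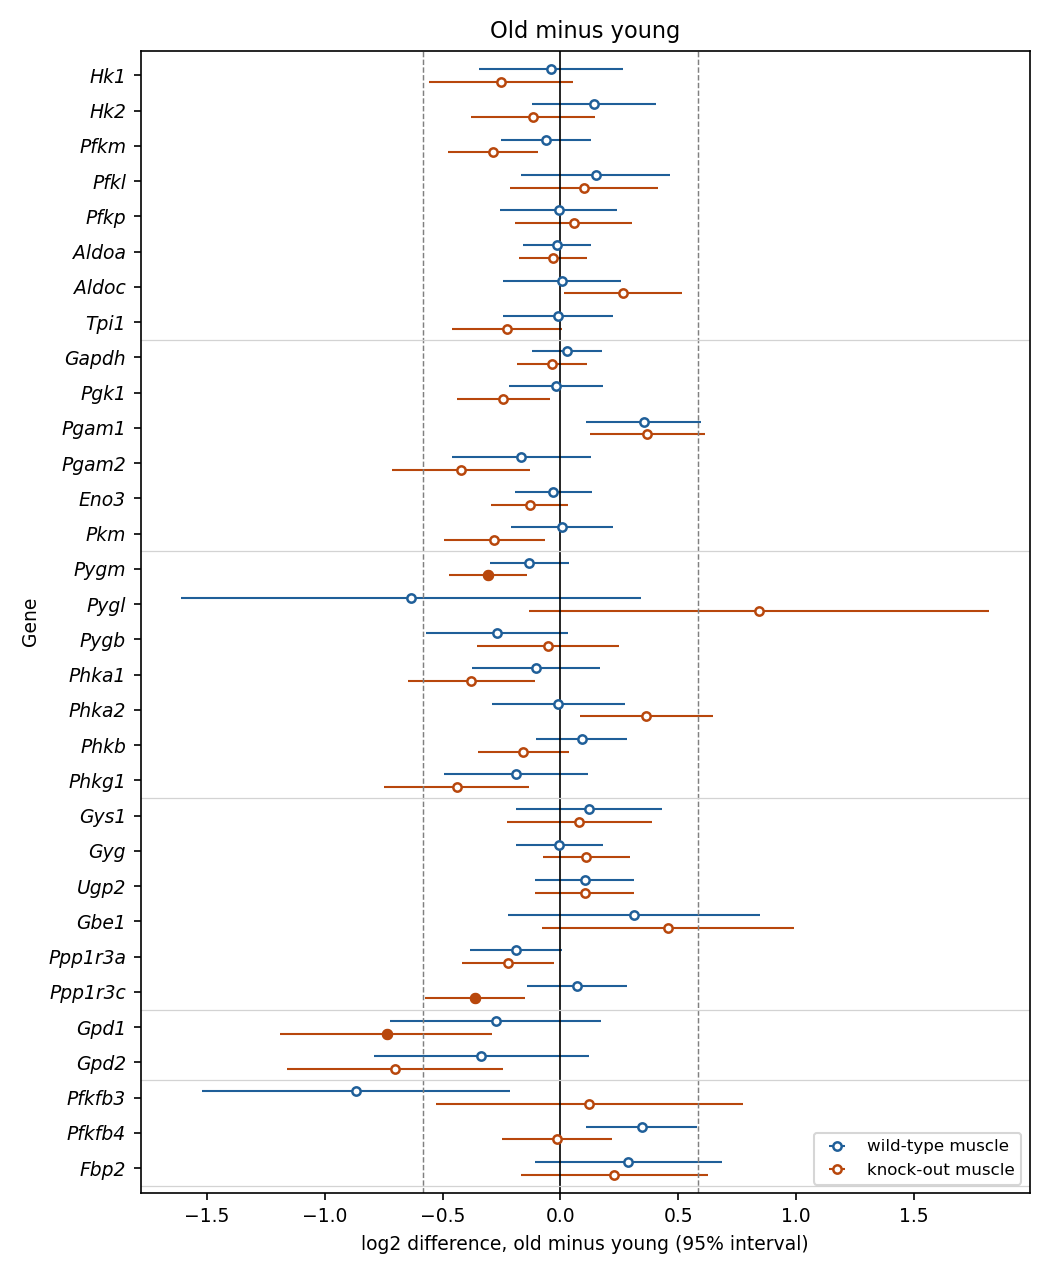
Old minus young log2 difference of each gene in wild-type (blue) and knock-out (orange) muscle, with 95% intervals from limma. Filled circles passed at an adjusted p of 0.05, and dashed lines mark 1.5-fold either way. Pygm, Ppp1r3c and Gpd1 are filled in knock-out muscle, at -0.31, -0.36 and -0.74, and no circle is filled in wild-type muscle.

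In wild-type muscle 0 of the 32 genes passed with age, against 3.62% of all genes (limma with Benjamini-Hochberg adjustment), and 3 had an unadjusted p under 0.05 (16.6% of all). Groups did not overlap for 5 higher genes (12.8% of all genes) and 7 lower genes (13.5%). The plot of age differences places the wild-type and knock-out intervals of a gene next to each other. The median was -0.00926 in wild-type muscle, beside 0.00197 over all genes, and 25 intervals lay within 1.5-fold, against 82.5% of all. Pfkfb3 and Pfkfb4 make and remove fructose-2,6-bisphosphate, the strong activator of phosphofructokinase. Pfkfb3 read 11.46, 11.38 and 11.49 in WT young and 10.93, 10.52 and 10.28 in WT old, without overlap, and the difference was -0.87 ± 0.3 (adjusted p = 0.15). Its dimmer second probe set differed by -0.134 (adjusted p = 0.831 over all probe sets), and the mean of both gave -0.501 (adjusted p = 0.295). In knock-out muscle its arrays overlapped, at 11.02, 10.47 and 11.33 when young and 11.77, 11.03 and 10.39 when old. Pfkfb4 read 10.60, 10.33 and 10.29 in WT young and 10.61, 10.74 and 10.91 in WT old, a difference of 0.34 ± 0.108 (adjusted p = 0.113).

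Whether age differences depended on genotype was tested by the interaction, in which 0 of the 32 genes and 0% of all genes passed (limma, with 4 of the 32 at an unadjusted p under 0.05, against 5.45% of all). The 4 were Pygl, with a difference of differences of 1.48 ± 0.634, Pfkfb3 at 0.99 ± 0.424, Ppp1r3c at -0.43 ± 0.137 and Pfkfb4 at -0.36 ± 0.153, each with an adjusted p of 0.871. Without KO old 1 the values were 1.05, 0.637, -0.413 and -0.402 in the same order, each with an adjusted p of 0.929. Without KO old 3 the value for Pygl was 2.18 and passed (adjusted p = 0.018). The calls made in knock-out muscle alone are thus not shown to differ from wild-type muscle.

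**Figure D5:**
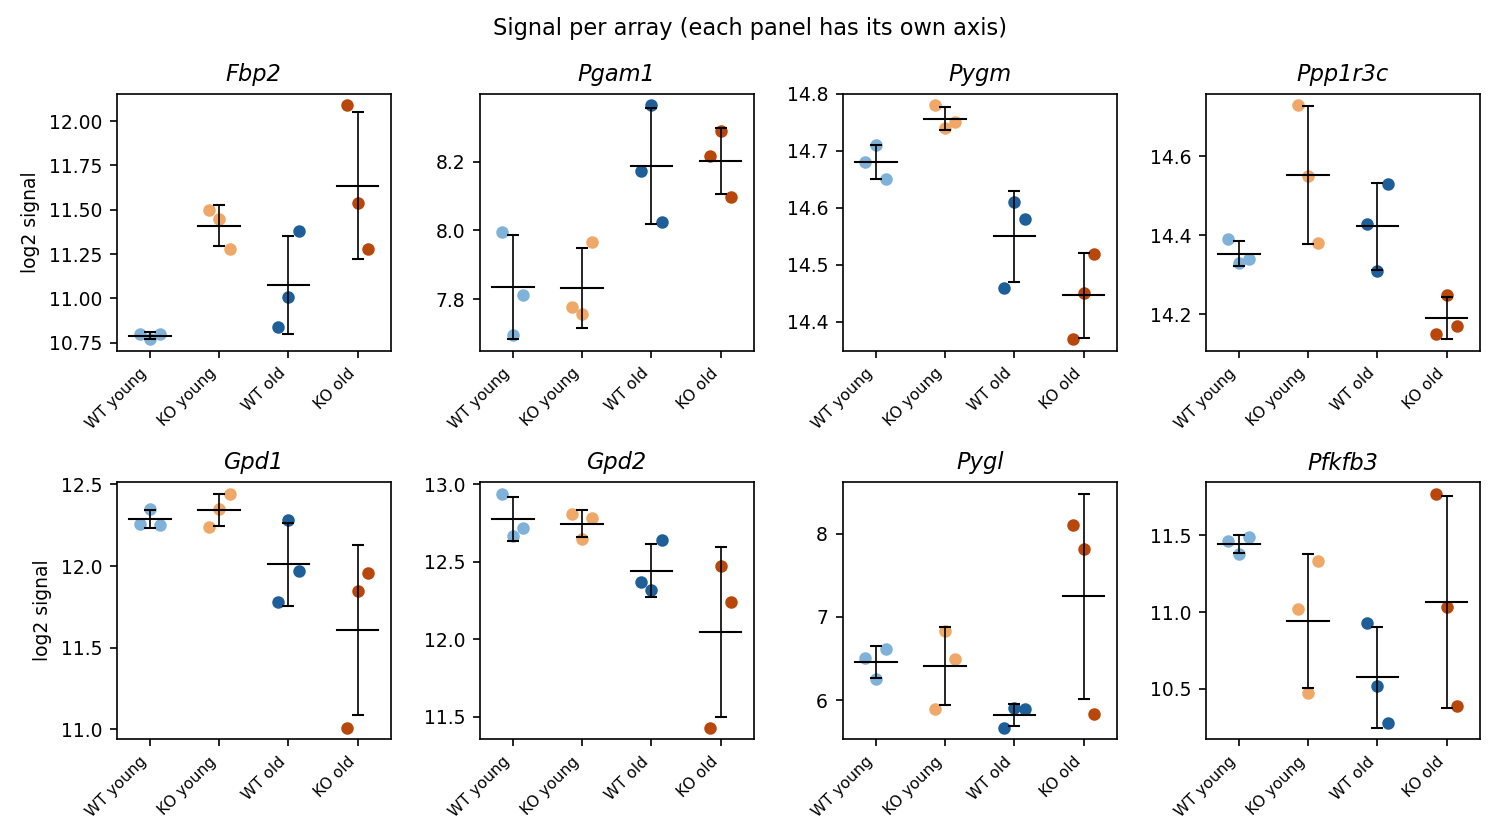
Log2 signal of 8 genes in each array, by group, with the mean and SD of the 3 arrays as bars, and each panel on its own axis. Fbp2 is higher in knock-out arrays with overlap in old muscle, Pgam1 is higher and Pygm lower in old arrays, and a single low KO old array stretches the spread of Gpd1 and Gpd2.

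The plot of signals by group shows the spread behind these tests. The SD over the 3 KO old arrays was 0.519 for Gpd1 and 0.549 for Gpd2, against 0.0566 and 0.143 in WT young. For Pygl it was 1.23 in KO old and 0.133 in WT old. Pgam1 had SDs of 0.0966 to 0.17 in the 4 groups, and Pygm 0.0197 to 0.0814.

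In upper glycolysis, which primes glucose with phosphate and cleaves it, 0 of 8 genes passed in any of the 4 group comparisons. Of all genes, 0.192% to 10.3% passed in these comparisons, so a count of 0 in a list this short says little. Hk2, the insulin-responsive muscle hexokinase, read 13.47, 13.45 and 13.55 in WT old and 13.02, 13.16 and 13.47 in KO old. The genotype difference in old muscle was -0.27 ± 0.121 (limma adjusted p = 0.242), and -0.177 without KO old 1 (adjusted p = 0.466). In young muscle it was -0.01 ± 0.121 (adjusted p = 0.979). Pfkm, the muscle phosphofructokinase and main control point, was at 15.21, 15.21 and 15.22 in KO young and 14.74, 15 and 15.04 in KO old, a difference of -0.29 ± 0.0876 (adjusted p = 0.0592). In lower glycolysis, which includes Pgam1 and Pgam2, 0 of 6 passed too. With age in knock-out muscle, however, groups did not overlap for 5 of the 6 that were lower (83.3%, against 14.9% of all genes). The same held for 1 that was higher (16.7%, against 13.8%). By limma, 4 of the 6 had an unadjusted p under 0.05 there (66.7%, against 24.9% of all genes). Of these, 3 were lower (50%, against 12.9% of all genes) and 1, Pgam1, was higher (16.7%, against 12%). Pkm, pyruvate kinase, differed by -0.28 ± 0.0985 with age in knock-out muscle (adjusted p = 0.0934), or -0.204 without KO old 1 (adjusted p = 0.244). Pgk1, phosphoglycerate kinase, gave -0.24 ± 0.0911 (adjusted p = 0.116), or -0.214 without KO old 1 (adjusted p = 0.23). Eno3, the muscle enolase, gave -0.13 ± 0.0749 (adjusted p = 0.313), or -0.0737 without KO old 1. Gapdh, read here through the control probe set of the array, differed by 0.03, -0.04, 0.03 and -0.04 in the 4 comparisons.

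Isoforms of the same enzyme gave different values, and the difference between isoforms was not tested. In phosphorylase, Pygm fell with age in knock-out muscle, while Pygb, the brain form, differed by -0.05 ± 0.138 (limma adjusted p = 0.867). Pygl, the liver form, differed by 0.84 ± 0.449 in the same comparison (adjusted p = 0.275), or 0.416 without KO old 1 (adjusted p = 0.657). Among the phosphorylase kinase alpha subunits, Phka1, the muscle form, differed by -0.38 ± 0.124 in that comparison and Phka2 by 0.36 ± 0.129 (adjusted p = 0.0755 and 0.0971). Without KO old 1 these were -0.244 and 0.191 (adjusted p = 0.214 and 0.241). The 2 other probe sets of Phka1 gave -0.389 and -0.424 over all arrays. Those of Phka2, both with a mean under the array median, gave -0.0475 and -0.00932. Gbe1, the glycogen branching enzyme, read 10.25, 10.31 and 10.58 in WT young, 10.48, 10.71 and 10.70 in KO young, 10.74, 10.70 and 10.65 in WT old and 11.87, 10.66 and 10.73 in KO old, so KO old 1 alone made its high KO old mean. Gys1, muscle glycogen synthase, differed by -0.21 to 0.12 in the 4 comparisons, and none passed.

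The other genes of these pathways, 45 measured of 49 listed, are the transporters, lactate and pyruvate enzymes and further isoforms. Pdk2, a kinase that shuts off pyruvate dehydrogenase, read 10.65, 10.92 and 10.75 in WT old and 10.07, 10.20 and 10.13 in KO old. It fell by 0.64 ± 0.115 with genotype in old muscle (limma adjusted p = 0.0233), the only call there (lower in 0.852% of all genes). The Pdk2 difference in young muscle was close to this, at -0.599 ± 0.115 without overlap, but missed the threshold (adjusted p = 0.0645). In young muscle 0 of 45 passed between genotypes, beside 0.192% of all genes (limma), and 10 (22.2%, against 11.3% of all genes) had an unadjusted p under 0.05. Averaged over both ages, a comparison chosen after the values were seen, 4.22% of all genes passed. There Pdk2 (-0.62), Ldhb (-0.52), Slc16a1 (-0.52) and Mpc1 (-0.25) passed as lower in knock-out muscle. Ppp1r3d (0.58) and Stbd1 (0.59) passed as higher (limma adjusted p from 0.00196 to 0.0327 for these genes). With age in wild-type muscle 2 of the 45 were higher (1.65% of all genes) and 3 lower (1.97%). Pdk4, another such kinase, known to rise on fasting, rose by 1.12 (adjusted p = 0.0361) and Pfkfb2, another fructose-2,6-bisphosphate enzyme, by 0.69 (adjusted p = 0.0214). Slc2a4, the insulin-responsive glucose transporter GLUT4, fell by 0.41 (adjusted p = 0.0368). Slc16a3, a lactate exporter, fell by 0.64 (adjusted p = 0.0246), and Epm2a, the glycogen phosphatase laforin, by 0.88 (adjusted p = 0.0172). In knock-out muscle 2 were higher (4.85% of all genes) and 3 lower (5.41%). Pdk4 rose by 1.29 (adjusted p = 0.00984), Pgm3 rose by 0.42 (adjusted p = 0.0315), Slc16a3 fell by 1.09 (adjusted p = 0.000786), Pgp fell by 0.49 (adjusted p = 0.00966) and Slc2a4 fell by 0.37 (adjusted p = 0.0286).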

How the data were processed

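The 12 arrays, 3 in each of 4 groups, were grouped by the genotype and age in the labels. The deposited log2 signals were made by the authors with RMA (affy), per the submitters' processing notes, without a stated version. The genome build is not given in the sources used here. The values were used as deposited, with no further normalization. Of 45101 probe sets, 34958 named 1 gene in the platform annotation, 932 several and 9211 none, and those naming several or none were left out.

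In R 4.3.3, limma 3.58.1 (lmFit and eBayes) fitted 4 group means with 8 residual and 4.15 prior degrees of freedom. The Benjamini-Hochberg adjustment ran over 18194 genes, and a gene passed at an adjusted p under 0.05. The interaction and both age and genotype differences were tested, and the 2 averages over age and over genotype were added after the values were seen. The genes named first in a comparison are those that passed, or else the 4 with the smallest p. Members and lists were chosen with earlier results of these data known. The procedure was checked on simulated data. Values after ± are standard errors, and the number of arrays limits the precision. Promoter windows were searched on both strands. Alternatives were other summaries of probe sets, brighter genes alone, recentring, quantile normalization, other variance models, array weights, fits to the compared groups alone, a looser threshold of 0.10 and leaving out arrays.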

Additional observations from a re-analysis of the deposited data

How the results depend on the processing

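Counts of the 32 genes that passed moved with the settings as follows. With array weights the young genotype comparison gave 2 and the wild-type age comparison 3. The wild-type age comparison gave 2 with only the groups compared and 1 without KO old 1 and WT young 1 together, an alternative chosen after seeing the data. The knock-out age comparison gave 7 among brighter genes alone, 6 after quantile normalization again, 8 with trended and robust variances, 0 with only the groups compared, 11 at an adjusted p of 0.10 and 0 without both arrays. Leaving out each array in turn gave 0 to 2 for genotype in old muscle, 0 to 6 for age in knock-out muscle, 0 to 1 for the interaction, 0 to 2 for the averaged genotype comparison and 2 to 7 for the averaged age comparison. The averaged age comparison gave 4 after centring arrays on their median (Phkg1 and Ppp1r3a lost, adjusted p = 0.0551 and 0.0614) and 5 with each gene's probe sets averaged (Phkg1 lost, 0.0775), and Ppp1r3a was lost with trended and robust variances (0.0748). The cause of these moves was not tested. Over all genes, array weights raised the young genotype count from 35 to 1019 and the wild-type age count from 659 to 2451, and fitting only the groups compared lowered the knock-out age count from 1868 to 617. No difference with a call, or with the smallest p-values named, reversed its sign under these alternatives. No paired analysis was possible because the labels carry no replicate numbers: the numbers of the arrays were given in accession order and pair nothing. With 3 arrays per group, differences in dim genes and in genes near the top of the scale are the least certain.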

Other observations

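Of 26 other probe sets above log2 6.22, belonging to 14 of the genes, 21 had the sign of the used probe set for genotype in young muscle, 26 in old muscle, 21 for age in wild-type muscle and 23 in knock-out muscle. Where the used probe set differed by more than 0.2, the sign was shared by 5 of 5, 12 of 12, 5 of 5 and 12 of 12. These are counts of probe sets, so a gene with several enters more than once. Dimmer probe sets were left out. With age in knock-out muscle, those of Phka2 had the opposite sign to the used probe set, while that of Gpd2 shared it.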
